A study of Arabidopsis thaliana with 24 samples.

Results

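The early transcriptome after induction of EXPA1 was described by comparing shoots of the EXPA1 OE line with WT shoots after 3 h of dexamethasone (Dex). The comparison was set by its samples and used 8 of the 24 libraries of the series, 4 of EXPA1 OE and 4 of WT, and 20449 of the 33602 genes in the count table had enough counts to be tested. Genes of the endoplasmic reticulum (ER) and of the cell wall (CW) are kept short here, and the text is about what else moved.

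The EXPA1 OE group was line 8-4, a single line in the Arabidopsis Col-0 background, and the WT group was Col-0. Dex is a synthetic glucocorticoid that in this line activates a glucocorticoid receptor-based transcription factor, itself made under the RPS5A promoter, which drives the added EXPA1 copy. RPS5A is known for activity in dividing tissue. WT carried no such factor, so that effects of the activated factor and of EXPA1 cannot be told apart, and a single line does not part the insertion from the induction. Shoots of both genotypes came from 7-day-old seedlings grown in long days, with 4 biological replicates a group, and both genotypes received Dex for the last 3 h, so that an effect of Dex common to both was not part of the difference. Of the other groups, 8 libraries were of the same genotypes without Dex and 8 of seedlings kept on Dex for 7 days, and they are used here only beside the 3 h values. They share no library with the 3 h comparison.

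Expansins loosen the CW without cutting its polymers, and CW extension in growing leaves depends on turgor, which water channels and solutes maintain. A secreted protein made in large amounts also passes through the ER and Golgi. In shoots, growth is further set by auxin, brassinosteroids and growth regulators of the leaf, and sugar made in the mesophyll leaves through the phloem.

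EXPA1 (AT1G69530, chromosome 1, 26141836 to 26143500, TAIR10) reached 18536, 19173, 18416 and 18152 CPM in EXPA1 OE shoots, against 366, 391, 327 and 406 CPM in WT shoots. CPM are counts scaled to a common library total with TMM factors. Counts do not part the added copy from the native one, so the 2 cannot be told apart. The 8 libraries held 35855923 to 59357617 counts each. In all, 923 genes were called higher and 999 lower in EXPA1 OE, that is 9.40% of the genes tested (4.51% higher, 4.89% lower). A gene was called when the adjusted p of edgeR's quasi-likelihood test, with Benjamini-Hochberg adjustment over all genes tested, was under 0.05 and the log2 fold change was at least 1 in size. EXPA1 is 1 of the 923. In 1763 of the 1922 called genes the 4 EXPA1 OE libraries all lay beyond the 4 WT libraries, and this held for 48.4% of all genes tested. Summed CPM are given as a percent of the common scaled total, not of the raw counts. The genes called higher summed to 5.65% to 6.08% in EXPA1 OE and 1.02% to 1.06% in WT. Without EXPA1 they summed to 3.83% to 4.16% in EXPA1 OE and 0.986% to 1.02% in WT. By the same measure the genes called lower summed to 1.4% to 1.53% in EXPA1 OE and 3.55% to 4.01% in WT.

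**Figure D1:**
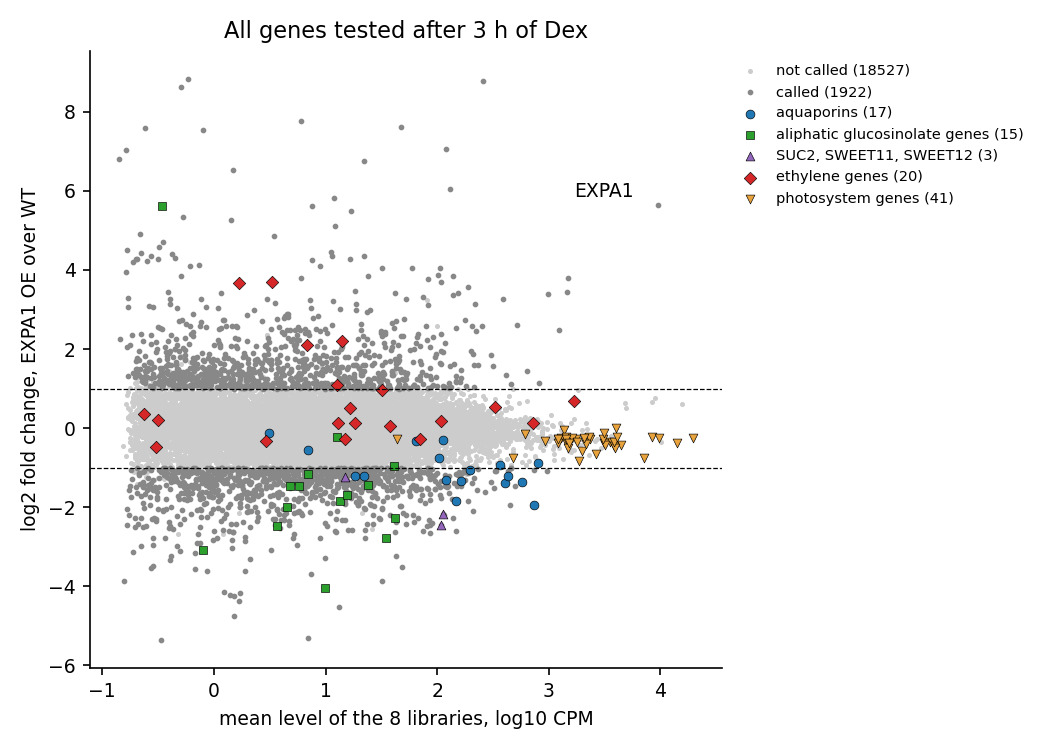
Log2 fold change of EXPA1 OE over WT after 3 h of Dex (y axis) against the mean level of the 8 libraries in log10 CPM (x axis) for the 20449 genes tested. Dashed lines mark a log2 fold change of 1 in size, dark grey points are the 1922 called genes, and coloured points are members of 5 groups described in the text. All 17 aquaporins lie below 0, and EXPA1 lies apart from other genes of its level.

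EXPA1 OE replicate 2 stood apart from the other libraries in its share of nuclear rRNA (5.55% of counts) and of plastid transcripts (10.8%). Left out, 929 genes were higher and 1095 lower. WT after 3 h also split in these shares. Plastid transcripts took 3.84% and 3.89% of counts in replicates 1 and 2, and 1.27% and 1.59% in replicates 3 and 4. Nuclear rRNA took 1.76% and 1.94% in replicates 1 and 2, and 0.539% and 0.696% in replicates 3 and 4. Of WT without Dex, libraries 1 and 2 and libraries 3 and 4 formed 2 pairs, with rank correlations of 0.996 within a pair and 0.979 to 0.983 between pairs. Results that use these libraries are therefore given with either pair alone where the pair changes them. The 7 leaf mesophyll markers summed to 44260.0 to 49899 CPM in EXPA1 OE and 57221 to 63631 CPM in WT, so that the libraries carried the labelled tissue, and none was called, with log2 fold changes from -0.56 (GLDP1) to -0.26 (RBCS1A). Summed levels of 9 root hair markers were 16.6 to 27.5 CPM in EXPA1 OE and 5.06 to 11.5 CPM in WT. Those of 8 markers of other root tissues were 282 to 366 CPM in EXPA1 OE and 771 to 814 CPM in WT. All 13 seed markers listed, 11 of them tested, summed to 2.58 to 32.3 CPM in EXPA1 OE and 24.6 to 150 CPM in WT. Of the 8 markers of other root tissues only 1, PYK10, was called, as lower, and their median log2 fold change was -0.25. Of the other markers tested, 4 of 9 for root hairs rose, 9 of 11 for seeds fell, and 3 of 6 for phloem fell (4.51% of all genes higher, 4.89% lower). Without Dex 4 of the 9 root hair markers were lower in EXPA1 OE (2.94% of all genes), with a median of -1.41. Their genotype difference after 3 h was above that without Dex in all 9 (7.16% of all genes). The part of these markers in the results below was not tested. In whole shoots, fewer cells of a type and less RNA per cell cannot be told apart.

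The gene lists used below were described by counts, to be read beside the share of all genes called, 4.51% higher and 4.89% lower. Marker lists aside, those with the largest shares of lower members were aliphatic glucosinolate genes, aquaporins and leaf growth factors, and those with the largest shares of higher members were sulfur deficiency and touch and wound response genes. No member was called for DNA replication, mitotic cell cycle, autophagy, guard cells, phospholipid synthesis, sugar starvation, nitrate assimilation, the evening clock, or photosystems, antennae and Rubisco.

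**Figure D2:**
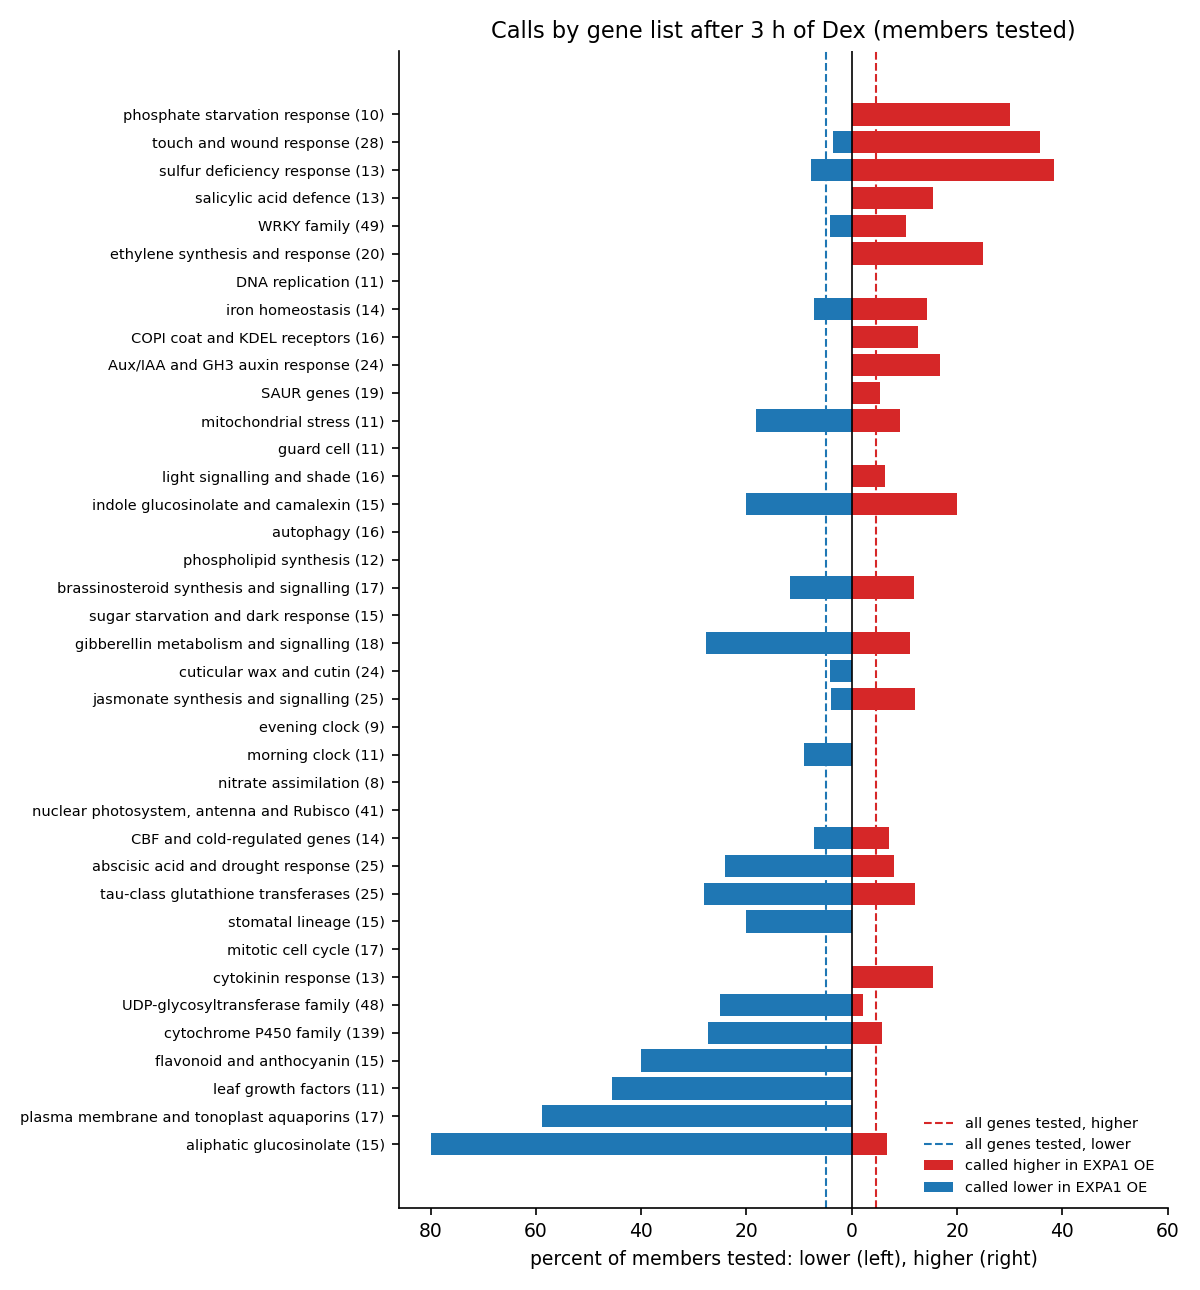
Percent of the members tested that were called higher (right, red) or lower (left, blue) in EXPA1 OE after 3 h of Dex, by gene list, ordered by median log2 fold change. Numbers after the names are members tested, and dashed lines mark the shares over all genes tested, 4.51% higher and 4.89% lower. Aliphatic glucosinolate genes had 12 of 15 and aquaporins 10 of 17 members lower.

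Sugar carriers of the phloem fell in EXPA1 OE, while other phloem genes moved less. SUC2 is the proton symporter that loads sucrose into companion cells (AT1G22710, chromosome 1, 8030641 to 8033117). It stood at 36.1, 32.9, 30.2 and 34.8 CPM in EXPA1 OE shoots, against 186, 165, 189 and 194 CPM in WT shoots (log2 fold change -2.46, SE 0.073, adjusted p = 2.3e-09, edgeR). SWEET11, a sucrose exporter of phloem parenchyma, gave 39.6, 38.2, 37.9 and 46.5 CPM in EXPA1 OE shoots, against 185, 165, 191 and 192 CPM in WT shoots (log2 fold change -2.18, SE 0.078, adjusted p = 8.1e-09, edgeR). Every EXPA1 OE library lay below every WT library in both genes, as in 23.5% of all genes tested, and no library came near the other group. The related exporter SWEET12 fell as well (8.99 ± 0.931 CPM in EXPA1 OE and 21.2 ± 1.65 CPM in WT; SD, n = 4 each; log2 fold change -1.24). By contrast APL, a regulator of phloem identity, had a log2 fold change of -0.04, adjusted p = 0.64, and the sieve element protein genes PP2-A1 and SEOR1 had -0.11, adjusted p = 0.16 and -0.51, adjusted p = 0.00024 (edgeR). None of the 3 was called. Without Dex SUC2 stood at 188 ± 13.7 CPM in EXPA1 OE and 154 ± 6.33 CPM in WT (SD, n = 4 each). For SUC2 the genotype difference after 3 h was below that without Dex by 2.78 on the log2 scale, SE 0.10, and both SWEET genes changed in that test in the same direction, also with either pair of the WT libraries without Dex. After 7 days of Dex SWEET11 was higher in EXPA1 OE (log2 fold change 1.38, adjusted p = 5.6e-05, edgeR) and SUC2 was not called (0.27, adjusted p = 0.54). The difference between 3 h and 7 days was not tested.

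Other transporters were among the largest changes. AMT1;2, an ammonium transporter of the plasma membrane, had 6.31, 8.94, 8.14 and 9.76 CPM in EXPA1 OE shoots, against 92.6, 77.8, 82.1 and 58.9 CPM in WT shoots (log2 fold change -3.23, SE 0.16, adjusted p = 7.1e-08, edgeR). It was also lower without Dex by its means, 33.2 CPM in EXPA1 OE and 75.2 CPM in WT, where it was not called. OPT3, a phloem transporter of the iron status signal, fell to 56.1 CPM in EXPA1 OE, against 148 CPM in WT (log2 fold change -1.4). STP1, a hexose symporter of the plasma membrane, was higher (863, 847, 987 and 1013 CPM in EXPA1 OE shoots, against 364, 300.2, 424 and 282 CPM in WT shoots). STP1 was called higher without Dex too, at 172 CPM in EXPA1 OE and 79.3 CPM in WT, and the test of the difference between the conditions did not call it.

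Water channels fell as a family. Plasma membrane intrinsic proteins (PIP) carry water into the cell and tonoplast intrinsic proteins (TIP) into the vacuole. All 17 members tested had a negative log2 fold change, 10 of 17 were called lower against 4.89% of all genes, and the median was -1.21 against 0.02 over all genes. Their summed level was 2377 to 2692 CPM in EXPA1 OE and 5349 to 6654 CPM in WT. TIP1;2 (chromosome 3, 9722443 to 9723815) had the largest loss of CPM of any called gene. It reached 309, 289, 271 and 344 CPM in EXPA1 OE shoots, against 1218, 1058, 1268 and 1087 CPM in WT shoots (log2 fold change -1.93, SE 0.086, adjusted p = 3.7e-08, edgeR). TIP1;1 had 68.9, 59.1, 57.9 and 68.96 CPM in EXPA1 OE shoots, against 243, 233, 229.8 and 213 CPM in WT shoots (log2 fold change -1.85, SE 0.074, adjusted p = 1.8e-08, edgeR). Of the plasma membrane forms, PIP1;2 gave 320.1, 329, 305 and 340.4 CPM in EXPA1 OE shoots, against 861, 792, 923 and 743 CPM in WT shoots (log2 fold change -1.36, SE 0.07, adjusted p = 1.2e-07, edgeR). In these genes the groups did not overlap, and 23.5% of all genes tested lay below WT in this way. The lowest WT library was more than 2 times the highest EXPA1 OE library in each. PIP1;1, PIP1;4, PIP2;1, PIP2;6, PIP2;7, PIP2;8 and TIP2;2 were called too, between -1.38 (PIP2;1) and -1.06 (PIP1;1).

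The family was not uniform. PIP2;2, PIP2;3 and PIP2;4 had log2 fold changes of -0.31, -0.33 and -0.13, and PIP2;5 of -0.54, all above those of the called members. PIP2;2 and PIP2;3 are near-identical copies whose reads may have been split between them in counting. PIP1;3, PIP1;5 and TIP2;1 lay between -0.92 and -0.74 and missed the fold threshold. Without Dex no member was called in either direction, and the genotype difference after 3 h was below that without Dex in 12 of 17 members (12.2% of all genes differed in either direction). With 1 pair of the WT libraries without Dex that count was 12, and with the other pair 10. No member was called after 7 days of Dex.

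**Figure D3:**
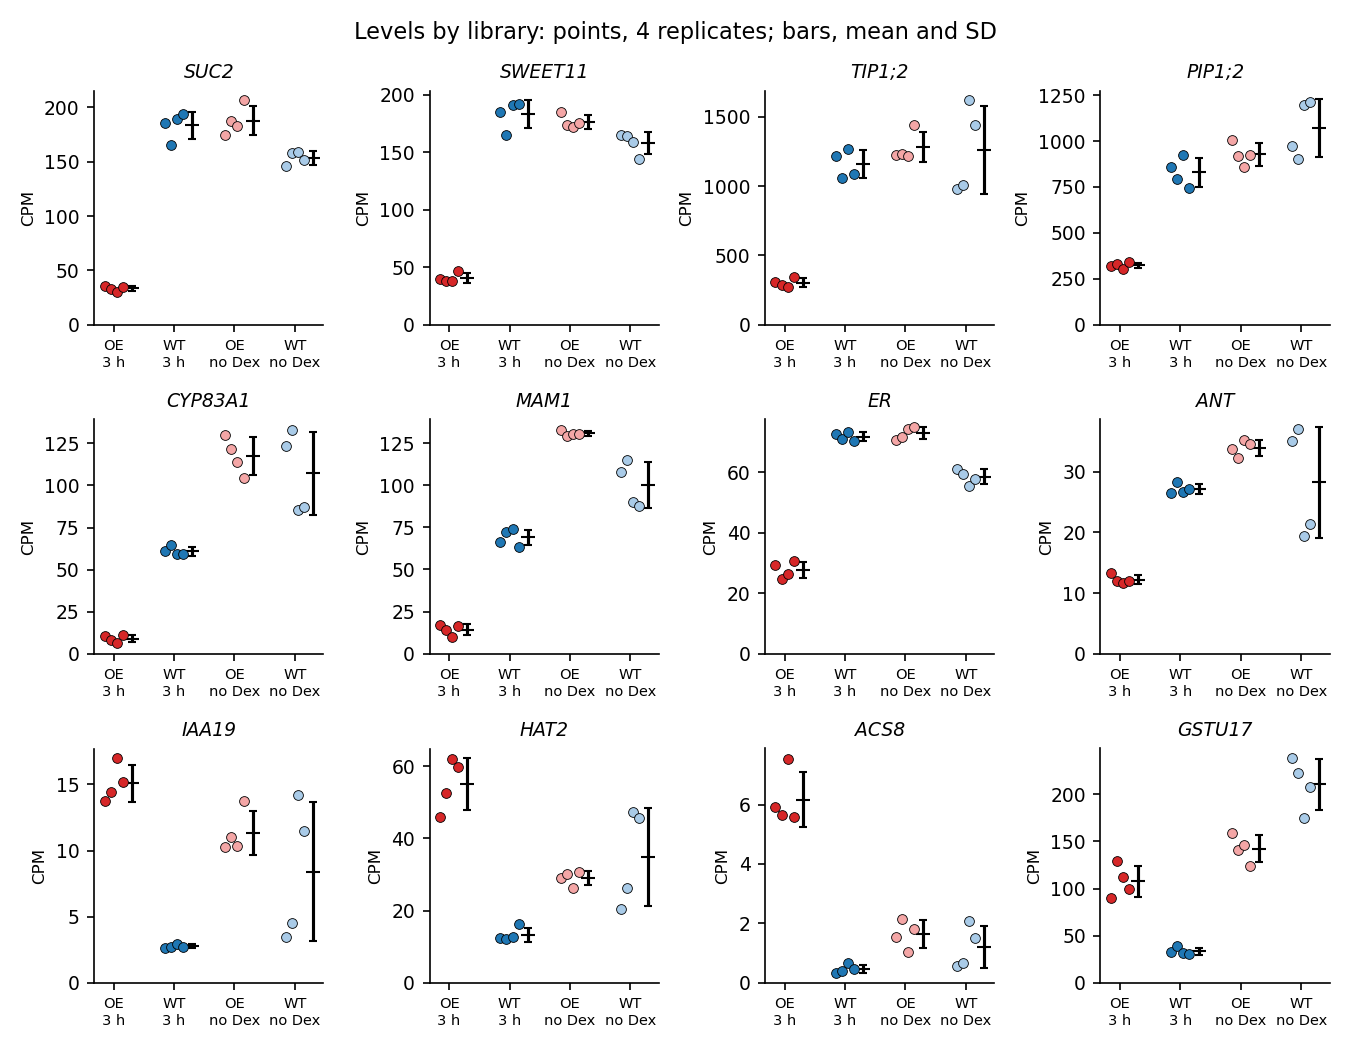
Level in CPM (y axis, from 0) of 12 genes in the 4 libraries each of EXPA1 OE and WT after 3 h of Dex and of EXPA1 OE and WT without Dex. Points are libraries and the bar beside them is the mean and SD. SUC2 stands at 30.2 to 36.1 CPM in EXPA1 OE after 3 h and at 165 to 194 CPM in WT after 3 h, and WT without Dex forms 2 pairs in IAA19 and ANT.

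Aliphatic glucosinolate genes fell from the regulators to the last steps. Glucosinolates are defence compounds of the cabbage order, made from methionine (aliphatic) or tryptophan (indole). Of 15 aliphatic members tested 12 were lower and 1 was higher (4.89% and 4.51% of all genes), with a median of -1.70. The regulators MYB28 and MYB29 had 16.4, 12.3, 10.5 and 12.8 CPM in EXPA1 OE shoots, against 36.1, 33.5, 34.3 and 35.8 CPM in WT shoots, and 1.67, 1.27, 0.512 and 1.04 CPM in EXPA1 OE shoots, against 7.19, 7.36, 6.24 and 4.28 CPM in WT shoots. Their log2 fold changes were -1.43, adjusted p = 2.5e-06, and -2.48, adjusted p = 5e-05 (edgeR). Of the enzymes, MAM1, which lengthens the methionine side chain, had 16.98, 14.1, 10.02 and 16.5 CPM in EXPA1 OE shoots, against 66.6, 71.99, 73.7 and 63.6 CPM in WT shoots (log2 fold change -2.26, SE 0.14, adjusted p = 4.6e-07, edgeR). CYP83A1, which acts on the oximes, had 10.3, 8.28, 6.28 and 10.9 CPM in EXPA1 OE shoots, against 60.8, 64.7, 59.1 and 59.3 CPM in WT shoots (log2 fold change -2.77, SE 0.14, adjusted p = 1.2e-07, edgeR). CYP79F1 makes those oximes (chromosome 1, 5608807 to 5611426) and was among the 10 largest falls, at 1.14, 0.941, 0.444 and 1.93 CPM in EXPA1 OE shoots, against 15.3, 23.1, 22.2 and 13.3 CPM in WT shoots (log2 fold change -4.04, SE 0.34, adjusted p = 3.8e-06, edgeR). CYP79F1 and its neighbour CYP79F2 are close copies, and counting may have moved reads between them. All 4 EXPA1 OE libraries lay below all WT libraries in each of these genes, as in 23.5% of all genes tested. CYP79F1 was taken as a large fall from among genes so separated, so that its separation was given by that choice.

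The other called members were BCAT4 (-1.84), which starts chain elongation, the plastid carrier BASS5 (-1.47), CYP79F2 (-1.46), the sulfotransferases SOT17 (-1.16) and SOT18 (-1.7), and the side-chain enzymes FMOGS-OX1 (-1.99) and AOP2 (-3.09). AOP3, which lies beside AOP2 and also modifies side chains, went the other way at a very low level, with 0.2695, 0.4499, 1.297 and 0.701 CPM in EXPA1 OE shoots, against 0, 0, 0 and 0.0369 CPM in WT shoots. MAM3 (-0.21, adjusted p = 0.11, edgeR) was not called. Without Dex no member was called, and the genotype difference after 3 h was below that without Dex in 12 members, or in 10 and 12 with either pair of WT libraries without Dex. CYP83A1 averaged 60.96 CPM in WT after 3 h and 107 CPM in WT without Dex. After 7 days 2 members were higher in EXPA1 OE.

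Indole glucosinolate genes split by step. CYP79B2 and CYP79B3, which turn tryptophan into its oxime, fell (-1.62 and -1.42), as did CYP83B1, the next enzyme (-1.28). CYP81F2, which hydroxylates the finished indole compound, rose, with 12.2, 16.6, 23.6 and 18.8 CPM in EXPA1 OE shoots, against 7.39, 8.74, 11.7 and 6.55 CPM in WT shoots (log2 fold change 1.05, SE 0.21, adjusted p = 0.0018, edgeR). IGMT2, which methylates the hydroxylated product, rose too, at 4.35, 7.87, 13.4 and 9.68 CPM in EXPA1 OE shoots, against 1.92, 2.46, 2.34 and 2.36 CPM in WT shoots (log2 fold change 1.95, SE 0.28, adjusted p = 0.00021, edgeR). PAD3, the last enzyme of camalexin synthesis, was called higher (1.7) at 1.19 to 3.43 CPM in EXPA1 OE and 0.466 to 1.24 CPM in WT, with overlapping groups. In all 3 of 15 members rose and 3 fell (4.51% and 4.89% of all genes).

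Several growth regulators of the leaf were lower. Of 11 leaf growth factors tested 5 fell and none rose (4.89% and 4.51% of all genes), with a median of -1.0. ANT, an AP2-type factor that prolongs organ growth, had 13.2, 11.9, 11.6 and 12.04 CPM in EXPA1 OE shoots, against 26.4, 28.4, 26.6 and 27.2 CPM in WT shoots (log2 fold change -1.16, SE 0.058, adjusted p = 9.7e-08, edgeR). The growth-regulating factors GRF4 and GRF5, which promote cell proliferation in leaves, fell by the same measure (-1.47, adjusted p = 4.9e-06, and -1.06, adjusted p = 2.1e-05), and their coactivator GIF1 lay at the fold threshold without being called (-1.0, adjusted p = 8.4e-07, edgeR). GRF6 (-1.49) and GRF7 (-3.16) were called as well, while GRF1, GRF2 and GRF3 lay between -0.25 and 0.32. GRF7 was called lower without Dex as well. CYP78A5, also known as KLUH, a P450 that extends organ growth, had 3.27, 2.92, 3.24 and 3.16 CPM in EXPA1 OE shoots, against 16.8, 18.03, 15.5 and 19.95 CPM in WT shoots (log2 fold change -2.48, SE 0.092, adjusted p = 1e-08, edgeR). EXPA1 OE lay below WT in every library of these genes, as in 23.5% of all genes tested. ANT and GRF7 were also called lower after 7 days, where 4 of 11 members fell.

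All 3 receptor kinases of the ERECTA family fell together. They set stomatal patterning, stem length and leaf shape. ERECTA itself (ER) had 29.5, 24.7, 26.3 and 30.6 CPM in EXPA1 OE shoots, against 72.8, 71.1, 73.3 and 70.3 CPM in WT shoots (log2 fold change -1.37, SE 0.067, adjusted p = 7.5e-08, edgeR). ERL2 stood at 6.795, 5.17, 6.47 and 7.01 CPM in EXPA1 OE shoots, against 16.0, 15.7, 16.2 and 16.7 CPM in WT shoots (log2 fold change -1.34, SE 0.091, adjusted p = 8.4e-07, edgeR), and ERL1 at 2.601 ± 0.271 CPM in EXPA1 OE and 5.96 ± 0.555 CPM in WT (SD, n = 4 each; log2 fold change -1.19). Within each genotype the 4 libraries were close, and the genotypes did not overlap (23.5% of all genes tested lay below WT in this way). The other 12 stomatal lineage genes tested were not called, among them the master regulators SPCH (0.23, adjusted p = 0.086), MUTE (-0.43, adjusted p = 0.16) and FAMA (-0.17, adjusted p = 0.083, edgeR). TMM, the co-receptor of the family, had -0.76, adjusted p = 6.1e-06. None of the 3 kinases was called without Dex, and each changed in the test of the difference between the conditions, for ER by -1.72, SE 0.086, adjusted p = 4.4e-10 (edgeR).

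Cell cycle genes moved by less than the fold threshold. All 17 mitotic genes had a negative log2 fold change with TMM scaling, and 16 of 17 with scaling to library totals, with a median of -0.44. Of these, 14 passed an adjusted p of 0.05 without a fold threshold, against 25.8% of all genes. Of 11 DNA replication genes 10 were positive, with a median of 0.22, and 6 passed without a fold threshold, against 27.4% of all genes. Genes of photosystems, antennae and Rubisco were lower by a small step. All 41 had a negative log2 fold change (40 of 41 with library totals), with a median of -0.28, and 36 passed without a fold threshold. Their summed level was 109541 to 129559 CPM in EXPA1 OE and 144836 to 161850 CPM in WT.

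Several genes of ethylene synthesis and early auxin response were higher. ACC synthases (ACS) catalyse the limiting step of ethylene synthesis. ACS8 had 5.91, 5.64, 7.53 and 5.58 CPM in EXPA1 OE shoots, against 0.32, 0.387, 0.664 and 0.479 CPM in WT shoots (log2 fold change 3.69, SE 0.20, adjusted p = 1.6e-07, edgeR), and ACS11 had 11.1, 11.2, 11.5 and 10.2 CPM in EXPA1 OE shoots, against 2.47, 2.41, 3.13 and 2.21 CPM in WT shoots (log2 fold change 2.1, SE 0.11, adjusted p = 1.2e-07, edgeR). Both were separated from WT by a factor of more than 3 in every library. ACS4 (3.67), ACS7 (1.1, with overlapping groups) and the ACC oxidase gene ACO1 (2.2) were called as well. In all 5 of 20 ethylene genes were higher, against 4.51% of all genes. Of the response genes ERF1, ERF2, ERF4, EBF1 and ORA59 none was called, with log2 fold changes from -0.33 (ORA59) to 0.19 (ERF1).

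Of 24 Aux/IAA and GH3 genes 4 rose and none fell (4.51% and 4.89% of all genes). IAA19, an auxin-induced repressor of the auxin response linked to hypocotyl growth (chromosome 3, 5264024 to 5265678), had 13.7, 14.4, 17.0 and 15.2 CPM in EXPA1 OE shoots, against 2.62, 2.74, 2.96 and 2.71 CPM in WT shoots (log2 fold change 2.45, SE 0.088, adjusted p = 8.1e-09, edgeR). IAA2 gave 148, 177, 173 and 148 CPM in EXPA1 OE shoots, against 46.8, 53.4, 58.7 and 48.2 CPM in WT shoots (log2 fold change 1.64, SE 0.089, adjusted p = 1.8e-07, edgeR). GH3.3, which joins auxin to amino acids, had 42.3 ± 10.3 CPM in EXPA1 OE and 18.5 ± 0.585 CPM in WT (SD, n = 4 each; log2 fold change 1.19). HAT2, an auxin-inducible homeodomain gene, rose to 55.1 CPM in EXPA1 OE, against 13.3 CPM in WT (log2 fold change 2.04). The rise was not shared by the whole group. Without a fold threshold 11 of 24 members passed an adjusted p of 0.05 upward and 5 downward. Over all genes these shares were 27.4% and 25.8%. Of the 19 SAUR genes listed only SAUR9 was called (1.65), where 9.40% of all genes were. By annotated product, a grouping chosen after seeing the data, the SAUR-like family had 61 genes tested, of which 7 rose and 3 fell.

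IAA19 stood at 11.3 ± 1.65 CPM in EXPA1 OE and 8.41 ± 5.24 CPM in WT without Dex (SD, n = 4 each). The WT libraries without Dex fell apart, at 3.47, 4.49, 14.2 and 11.5 CPM, so that libraries 1 and 2 were near the WT mean of 2.76 CPM after 3 h and libraries 3 and 4 near EXPA1 OE. Over all genes called higher, the mean of EXPA1 OE was at least 2-fold above its mean without Dex in 673 genes (72.9%) where WT had not fallen 2-fold. In 84 genes (9.10%) WT was 2-fold or more below its mean without Dex while EXPA1 OE had not risen 2-fold. For the genes called lower, the matching counts were 683 (68.4%) with a fall in EXPA1 OE and 82 (8.21%) with a rise in WT. These splits describe means with 0.1 CPM added and carry no test, and they rest on the mean of both pairs of WT libraries without Dex. With 1 pair of the WT libraries without Dex (3 and 4) the genotype difference after 3 h was above that without Dex in 5 Aux/IAA and GH3 genes and below it in none. With the other pair (1 and 2) it was above in 1 and below in 5.

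Touch and wound genes were higher in part. These genes respond within minutes to handling, wounding and elicitors. Of 28 tested 10 rose and 1 fell (4.51% and 4.89% of all genes). The summed level of all 30 listed was 1081 to 1428 CPM in EXPA1 OE and 498 to 720 CPM in WT. CML24 (TCH2), a calmodulin-like calcium sensor, had 69.4, 68.2, 60.8 and 55.4 CPM in EXPA1 OE shoots, against 21.1, 24.8, 25.6 and 17.3 CPM in WT shoots (log2 fold change 1.52, SE 0.12, adjusted p = 2.6e-06, edgeR). WRKY18, a defence regulator, had 29.8, 28.9, 40.8 and 43.9 CPM in EXPA1 OE shoots, against 6.66, 8.71, 8.38 and 9.203 CPM in WT shoots (log2 fold change 2.12, SE 0.15, adjusted p = 1.2e-06, edgeR). WRKY33, another, had 111, 119, 120.5 and 85.1 CPM in EXPA1 OE shoots, against 28.3, 47.4, 46.8 and 19.6 CPM in WT shoots (log2 fold change 1.62, SE 0.25, adjusted p = 0.0003, edgeR). AT5G51190, annotated as an AP2/ERF-type DNA-binding protein, had 29.2, 26.7, 48.2 and 37.3 CPM in EXPA1 OE shoots, against 7.91, 7.02, 5.04 and 3.301 CPM in WT shoots (log2 fold change 2.63, SE 0.26, adjusted p = 1.3e-05, edgeR). The 2 genotypes did not overlap in any of the 4, and 24.9% of all genes tested lay above WT in this way. The deadenylase gene CAF1A (1.94) and DREB26 (1.43) rose too, while ZAT6 fell (-1.22), and ZAT10 (-0.15, adjusted p = 0.71) and WRKY40 (-0.59, adjusted p = 0.033, edgeR) were not called. With libraries 3 and 4 of WT without Dex alone, the genotype difference after 3 h was above that without Dex in 20 members and below it in none, and with libraries 1 and 2 alone above in 5 and below in 5, so that these data do not settle how it differed from the uninduced state.

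Hormone lists other than these gave mixed calls, beside 4.51% of all genes higher and 4.89% lower. Of 25 jasmonate genes AOC3, an allene oxide cyclase (2.38), CYP94C1, which inactivates the active hormone (2.4), and the repressor JAZ1 (1.08) rose, and the vegetative storage protein gene VSP2 fell (-2.26), while LOX2 (-0.98), AOS (-0.57) and MYC2 (-0.55) were not called. Of 25 abscisic acid and drought genes 2 rose and 6 fell, and 6 of 26 were lower without Dex. DREB2A, a drought and heat factor, had 1.33, 1.41, 1.71 and 1.74 CPM in EXPA1 OE shoots, against 11.5, 5.64, 5.29 and 9.09 CPM in WT shoots (log2 fold change -2.34, SE 0.25, adjusted p = 2.1e-05, edgeR). CYP707A4, which degrades abscisic acid, fell (-2.79), and CYP707A3 of the same family rose (1.12). DWF1, a sterol reductase of brassinosteroid synthesis, had 118, 99.8, 112 and 127 CPM in EXPA1 OE shoots, against 347, 332, 327 and 351 CPM in WT shoots (log2 fold change -1.57, SE 0.07, adjusted p = 4e-08, edgeR), and BEE1, a growth-promoting factor of the brassinosteroid response, rose to 32.3 CPM in EXPA1 OE, against 10.6 CPM in WT (log2 fold change 1.6). Of 18 gibberellin genes 2 rose and 5 fell. Of 13 salicylic acid genes 2 rose, of 13 cytokinin genes 2, and the only called morning clock gene was PRR9 (-1.02), which lost its call when scaled to library totals.

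Detoxification and secondary metabolism genes were more often called lower than higher. Cytochromes P450 fell in 38 of 139 members tested and rose in 8 (4.89% and 4.51% of all genes), with a median of -0.50. CYP81D11, a xenobiotic-response gene, was among the 10 largest falls, at 4.197, 9.101, 7.77 and 9.82 CPM in EXPA1 OE shoots, against 105, 84.7, 104 and 61.4 CPM in WT shoots (log2 fold change -3.52, SE 0.25, adjusted p = 1.2e-06, edgeR). It stood at 1.96 CPM in EXPA1 OE and 7.93 CPM in WT without Dex, where it was called lower, so that its WT level was far higher after 3 h of Dex than without. CYP89A2 (19.4 CPM in EXPA1 OE, against 75.8 CPM in WT) and CYP706A5 (13.4 CPM in EXPA1 OE, against 42.5 CPM in WT) fell as well. Of 48 UDP-glycosyltransferase genes, taken by their UGT symbols, 12 fell and 1 rose. Of 66 genes with the annotated product of that superfamily, a grouping chosen after seeing the data, 8 fell and 4 rose. UGT73B2 had 32.2, 53.7, 54.3 and 60.02 CPM in EXPA1 OE shoots, against 199.7, 148, 164 and 132 CPM in WT shoots (log2 fold change -1.69, SE 0.18, adjusted p = 2.4e-05, edgeR). The UGT73B genes are a cluster of close copies, which counting may not part fully. Of 25 tau-class glutathione transferases 7 fell and 3 rose. GSTU20 fell to 49.5 CPM in EXPA1 OE, against 143 CPM in WT, and GSTU17 (ERD9) rose to 108 CPM in EXPA1 OE, against 33.5 CPM in WT (log2 fold changes -1.53 and 1.69). GSTU17 stood at 142 CPM in EXPA1 OE and 211 CPM in WT without Dex, so that here WT had a lower mean after 3 h than without Dex. Without Dex 10 of 139 P450, 7 of 48 UGT and 6 of 23 glutathione transferase genes were lower in EXPA1 OE, where 2.94% of all genes were. With WT libraries 3 and 4 alone these counts were 26, 9 and 10, and with libraries 1 and 2 alone 15, 12 and 4.

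Anthocyanin and seed genes were low in EXPA1 OE with and without Dex. Of 15 flavonoid and anthocyanin genes 6 fell after 3 h, against 4.89% of all genes, with a median of -0.95. DFR, the first enzyme particular to anthocyanins, had 2.04, 1.02, 1.64 and 1.79 CPM in EXPA1 OE shoots, against 6.197, 8.71, 4.03 and 9.77 CPM in WT shoots (log2 fold change -2.14, SE 0.28, adjusted p = 0.0001, edgeR), and LDOX, which follows it, had 2.098, 1.02, 1.297 and 1.66 CPM in EXPA1 OE shoots, against 6.11, 8.71, 4.07 and 8.85 CPM in WT shoots (log2 fold change -2.19, SE 0.28, adjusted p = 7.6e-05, edgeR). Without Dex DFR stood at 23.9 ± 3.04 CPM in EXPA1 OE and 65.4 ± 9.41 CPM in WT (SD, n = 4 each), and 12 of 16 members were lower (2.94% of all genes tested, and 3.16% in either direction). That count was 9 or 15 with either pair of the WT libraries. Of the seed markers tested 9 of 11 were lower after 3 h and 11 of 12 without Dex. The storage albumin SESA5 was the largest fall among the genes named, with 0.0193, 0.573, 0.683 and 0.112 CPM in EXPA1 OE shoots, against 3.64, 6.44, 27.9 and 16.03 CPM in WT shoots (log2 fold change -5.3, SE 0.78, adjusted p = 0.00022, edgeR). The WT libraries themselves spanned a wide range. AT5G56220, annotated as a P-loop nucleoside triphosphate hydrolase, had 0.963, 0.879, 1.08 and 1.47 CPM in EXPA1 OE shoots, against 25.8, 26.1, 23.7 and 25.9 CPM in WT shoots (log2 fold change -4.51, SE 0.13, adjusted p = 1.8e-09, edgeR). It was as low in EXPA1 OE without Dex (0.967 CPM in EXPA1 OE and 14.6 CPM in WT) and lower after 7 days too. Over all genes, 103 of the 999 called lower after 3 h were also lower without Dex, where 2.94% of all genes were. Of the 923 called higher, 5 were also higher and 63 were lower without Dex (0.214% of all genes higher).

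**Figure D4:**
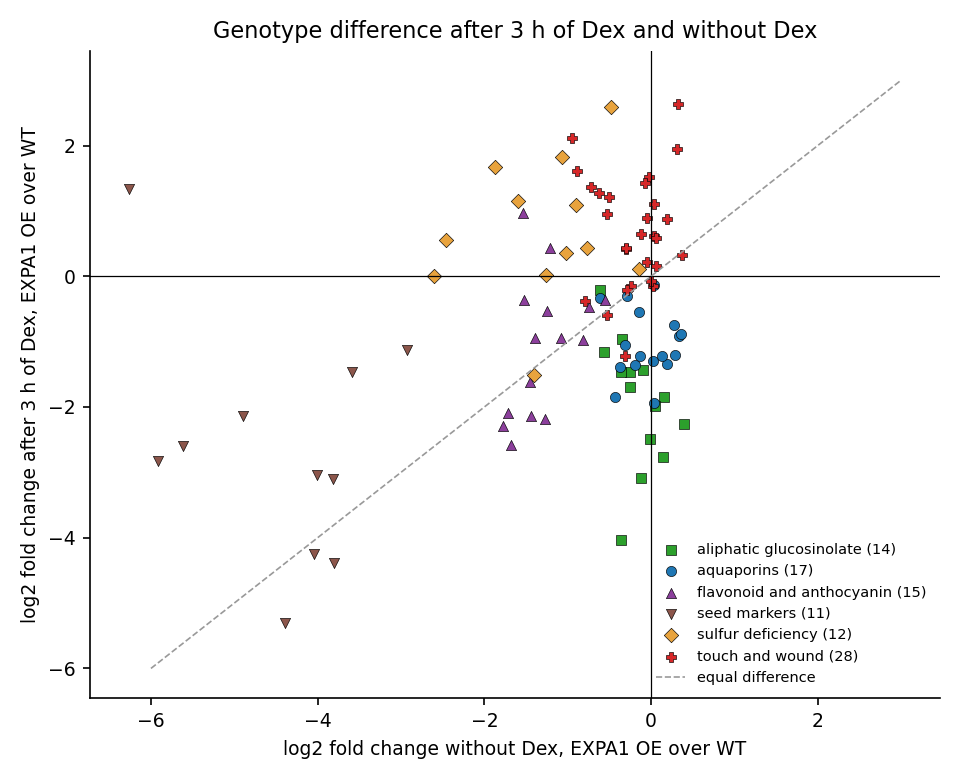
Log2 fold change of EXPA1 OE over WT after 3 h of Dex (y axis) against that without Dex (x axis) for members of 6 lists, with the number plotted after each name. The dashed line marks equal differences. Aquaporin and aliphatic glucosinolate genes lie near 0 on the x axis and mostly below 0 on the y axis, and flavonoid and seed genes lie mostly left of 0.

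Nutrient lists moved by a few genes each, beside 4.51% of all genes higher and 4.89% lower. Of 13 sulfur deficiency genes 5 rose and 1 fell. SULTR1;2, the main sulfate uptake transporter of roots, had 13.3, 16.7, 14.8 and 18.5 CPM in EXPA1 OE shoots, against 5.53, 7.25, 7.31 and 9.29 CPM in WT shoots (log2 fold change 1.1, SE 0.15, adjusted p = 0.00012, edgeR). AT5G26220, annotated as a ChaC-like protein, rose at 0.789 to 1.62 CPM in EXPA1 OE and 0.129 to 0.291 CPM in WT. APR3, a reductase of sulfate assimilation, fell (28.7, 45.4, 48.3 and 47.97 CPM in EXPA1 OE shoots, against 146, 119, 121 and 97.9 CPM in WT shoots). The genotype difference after 3 h was above that without Dex in 10 of the 13 (7.16% of all genes). It was above in 10 with WT libraries 1 and 2 without Dex, and in 5, with 1 below, with libraries 3 and 4. Without Dex the sulfur deficiency genes were themselves low in EXPA1 OE, with a median of -1.16 and 2 of 12 called lower (2.94% of all genes). With WT libraries 1 and 2 alone 10 were called lower there, and with libraries 3 and 4 alone 2. The phospholipase gene PLDP2 (6.51, 5.399, 6.28 and 6.63 CPM in EXPA1 OE shoots, against 2.44, 1.49, 2.31 and 2.31 CPM in WT shoots) was 1 of 3 of 10 phosphate starvation genes that rose. The other two, PS2 and MGDC, lost their call without EXPA1 OE replicate 1 (log2 fold changes of 0.79 and 0.75, against 1.49 and 1.44 with it) and without WT replicates 2, 3 or 4, so that the count was then 1. Among mitochondrial stress genes the NAC factor NAC032 fell, with 5.33, 6.91, 7.01 and 6.74 CPM in EXPA1 OE shoots, against 26.5, 23.3, 21.8 and 20.7 CPM in WT shoots (log2 fold change -1.82, SE 0.10, adjusted p = 2.2e-07, edgeR), and the outer membrane protein gene OM66 rose (1.86). MTO3, an S-adenosylmethionine synthetase, stood at 1115 ± 181 CPM in EXPA1 OE and 507 ± 50.3 CPM in WT (SD, n = 4 each; log2 fold change 1.14) and was among the 10 genes with the largest difference in CPM.

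Vesicle traffic genes rose in single copies of their families. The COPI coat carries cargo within the Golgi and back to the ER, and ARF1-type small GTPases recruit it. Of 16 COPI coat and KDEL receptor genes 2 rose, against 4.51% of all genes. AT3G15980, 1 of 3 beta prime subunit genes listed, had 443, 481, 432 and 364 CPM in EXPA1 OE shoots, against 69.7, 73.6, 67.5 and 74.5 CPM in WT shoots (log2 fold change 2.59, SE 0.083, adjusted p = 4.5e-09, edgeR). AT1G62020, an alpha subunit gene, had 354, 308, 325 and 283 CPM in EXPA1 OE shoots, against 83.3, 83.5, 73.9 and 88.2 CPM in WT shoots (log2 fold change 1.95, SE 0.079, adjusted p = 2e-08, edgeR). The remaining 14 genes lay between -0.20 and 0.35. The ARF1-type gene ARFA1D had 993, 1079.6, 794 and 707 CPM in EXPA1 OE shoots, against 147, 144, 150.2 and 145 CPM in WT shoots (log2 fold change 2.61, SE 0.12, adjusted p = 5.5e-08, edgeR), and SARA1A, a SAR1-type GTPase that starts COPII coats, had 26.03, 30.5, 20.1 and 16.2 CPM in EXPA1 OE shoots, against 0.262, 0.498, 0.279 and 0.553 CPM in WT shoots (log2 fold change 5.82, SE 0.28, adjusted p = 5.8e-08, edgeR). All 4 genes were near the WT level in EXPA1 OE without Dex. The largest rises also held BIP3, TIN1, ATERDJ3A, AT1G18830 and AT3G60540 of the ER, with log2 fold changes of 8.77 to 5.49. Beside them stood AT5G04210, annotated as a CCCH zinc finger protein (10.4, 13.5, 12.8 and 11.1 CPM in EXPA1 OE shoots, against 0.0873, 0, 0.0214 and 0.0922 CPM in WT shoots), AT3G55700, annotated as a UDP-glycosyltransferase (13.2, 16.7, 16.2 and 13.1 CPM in EXPA1 OE shoots, against 0.0873, 0.304, 0.493 and 0.258 CPM in WT shoots), and AT4G21730 (6.75).

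Further large falls lay outside the lists. LTP6, a secreted lipid transfer protein, had 2.93, 3.89, 3.94 and 5.55 CPM in EXPA1 OE shoots, against 63.9, 63.9, 54.5 and 56.01 CPM in WT shoots (log2 fold change -3.86, SE 0.15, adjusted p = 1.8e-08, edgeR). The subtilase genes AT4G21650 and AT2G39850 had log2 fold changes of -3.7 and -3.28, the squalene epoxidase-like gene SQP1 -2.79, and the receptor-like protein gene RLP49 -2.78. AT2G45180, annotated with the lipid transfer protein superfamily, had 549.5, 644, 588 and 661 CPM in EXPA1 OE shoots, against 1306, 1192, 1382 and 1309.5 CPM in WT shoots (log2 fold change -1.09). None of these 6 was called without Dex.

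Promoters of the genes called were searched for 7 short motifs in the 300 bases before the gene start, on both strands. The sequence was RefSeq TAIR10.1, for 20247 of the genes tested. The ER stress element is a 2-part motif, CCAAT and CACG with any 10 bases between. It was found in 31 of 920 promoters of genes called higher (3.37%) and in 8.44% of those higher by more than 4-fold, against 0.703% of those called lower and 0.958% of all tested. It overlaps a G-box (CACGTG) wherever TG follows its second part. The following windows are shown because they place the element before genes of the ER (BIP3, AT3G60540), of vesicle traffic (ARFA1D), of the auxin response (IAA19) and of detoxification (GSTU17, named ERD9 in RefSeq). Each is read 5′ to 3′ on the strand of its gene, with the 2 parts in capitals, either as CCAAT and CACG or as CGTG and ATTGG on the opposite strand.
BIP3, chr1:2931908-2931966, minus strand: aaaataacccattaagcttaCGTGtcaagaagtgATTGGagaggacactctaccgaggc
BIP3, chr1:2931986-2932044, minus strand: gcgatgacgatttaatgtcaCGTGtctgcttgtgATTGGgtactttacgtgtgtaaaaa
AT3G60540, chr3:22375929-22375987, minus strand: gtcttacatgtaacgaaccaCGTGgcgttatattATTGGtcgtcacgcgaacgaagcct
AT3G60540, chr3:22375970-22376028, minus strand: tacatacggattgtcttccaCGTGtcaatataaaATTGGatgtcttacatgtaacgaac
ARFA1D, chr1:26565944-26566002, minus strand: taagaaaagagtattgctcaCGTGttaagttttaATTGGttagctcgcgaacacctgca
IAA19, chr3:5263913-5263971, plus strand: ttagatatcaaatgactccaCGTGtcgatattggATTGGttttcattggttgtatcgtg
GSTU17, chr1:3398424-3398482, minus strand: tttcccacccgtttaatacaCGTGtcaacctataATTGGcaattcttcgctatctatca

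These genes rose by 8.77 (BIP3), 5.49 (AT3G60540), 2.61 (ARFA1D), 2.45 (IAA19) and 1.69 (GSTU17) on the log2 scale. BIP3 stood at 1.22 CPM in EXPA1 OE and 1.15 CPM in WT without Dex, whereas IAA19 and GSTU17 stood above their WT level of 3 h there. The other motifs were counted in the same sets. The G-box was found in 23.98% of promoters of genes lower by more than 4-fold, 12.1% of all called lower and 8.10% of all tested. It was also found in 12.2% of those higher by more than 4-fold and 10.5% of all called higher. The core of the rapid stress response element (CGCGTT) was found in 5.65% of promoters of genes called higher, 1.61% of those called lower and 3.31% of all tested, and the W-box (TTGACC), which WRKY factors bind, in 18.2%, 12.2% and 13.8% of the same sets. The C-repeat core CCGAC (14.02% higher, 12.6% lower, 14.96% all), the evening element core AATATCT (13.7%, 13.1% and 11.7%) and the abscisic acid element ACGTGGC (5.43%, 5.12% and 4.28%) were at similar shares in the sets. These shares are descriptions, and a match is not a bound site.

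After 7 days of Dex, 459 genes were higher and 342 lower in EXPA1 OE (2.22% and 1.65% of 20665 tested, 3.88% together). With the replicate number as a block, these counts were 580 higher and 568 lower. Whether the genotype difference after 3 h itself differed from that without Dex was tested in 1 fit over 16 libraries. It was above in 1511 genes (7.16% of 21090 tested) and below in 1055, together 12.2%. That fit includes the 8 libraries of the 3 h comparison, so that its calls are not independent of those above.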

How the data were processed

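Per the labels and the study's methods, polyadenylated RNA of whole shoots was sequenced with a directional library kit. The paper and the labels differ in the kit and read length, so neither is given here. The submitters' processing notes name Trimmomatic, STAR and the TAIR10 build. The authors deposited expected counts per gene from RSEM and counts per exon from featureCounts. The use of strand in counting is not given in the sources used here. Of the deposited expected counts, 3.82% of values were not whole, and they were rounded. Labels of genotype and treatment stand in other fields than their names say, so groups were taken from titles. Per the labels, replicates were biological.

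Genes passing edgeR's filterByExpr were fitted in edgeR 4.0.16 (R 4.3.3) with TMM factors and quasi-likelihood F tests, on the 8 libraries of each comparison or, for the difference between conditions, on 16. SE is the size of the log2 fold change over the square root of F. Genes were called at an adjusted p below 0.05 where their log2 fold change was 1 or more in size. CPM used TMM factors over all 24 libraries, and library totals set counting precision. The study's tool, DESeq2 1.42.0, other scalings, filters and fold thresholds, the exon counts and leaving out each library were tried as alternatives. On simulated data the test found 98 of 100 genes changed by 1.5 and 99 of 100 changed by 2.5 on the log2 scale after 3 h, with 0 false among 197 calls. For the difference between conditions it found 87 and 91, with 6 false among 184. After 7 days it found 77 and 97, with 5 false among 179, and without Dex 90 and 99, with 3 false among 192. The simulated counts were independent, with fitted dispersions, and held no deviating replicate and no pairs of libraries as the real data did.

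Same-numbered libraries deviated together after 7 days (correlations 0.16 to 0.49), but not after 3 h (0.01 to 0.11) or without Dex. The 43 lists and the genes in them were chosen with earlier results of these data known. Genes named were EXPA1, the 10 largest rises and 10 largest falls among separated called genes of at least 10 CPM in the higher group, the 10 largest differences in mean CPM, up to 4 called members of each list by adjusted p, and any marker. Further list members were named after their values were seen. Gene positions are from the authors' exon table (TAIR10), and promoter windows from RefSeq TAIR10.1.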

Additional observations from a re-analysis of the deposited data

Results flagged for a closer look

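EXPA1 OE replicate 2 after 3 h of Dex lay apart from its 3 fellows in the share of counts from nuclear rRNA genes (5.55%), from plastid genes (10.8%), from the 10 most abundant genes (21.5%) and from EXPA1 (1.69%). The genotype effect after 3 h differed from that without Dex in 1511 genes upward and 1055 downward, by the test of that difference in edgeR.

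Of 258 groups of 4 libraries (129 named genes in 2 genotypes), 13 had 1 library far from the other 3, and chance alone gives about 1 in 20. In EXPA1 OE after 3 h these were, in replicate 1, ARR3 at 0.539 CPM, NAC032 at 5.33 CPM, NAC102 at 42.4 CPM, APR3 at 28.7 CPM, AT1G04770 at 3.47 CPM and MGDC at 1.54 CPM. In replicate 2 it was CYP90D1 at 12.9 CPM, and in replicate 3 ACS8 at 7.53 CPM and PIP2;8 at 11.5 CPM. In WT after 3 h these were AT4G16660 at 79.8 CPM and PLDP2 at 1.49 CPM in replicate 2, AT5G56220 at 23.7 CPM in replicate 3 and ERD10 at 38 CPM in replicate 4.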

How the results depend on the processing

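No named gene changed the sign of its 3 h log2 fold change under the alternatives run. List counts that rest on WT without Dex did turn with its pair of libraries. With libraries 3 and 4 the touch and wound list had 0 genes higher and 11 lower without Dex, and with libraries 1 and 2 it had 15 higher and 1 lower, and the Aux/IAA and GH3 genes turned likewise in the difference from no Dex. Library totals as scaling gave 962 genes higher and 941 lower after 3 h. Testing against a log2 fold change of 1 gave 378 genes higher and 419 lower after 3 h, 2 and 130 without Dex, 463 and 267 for the difference between these, and 112 and 23 after 7 days. With no fold threshold these were 5594 and 5286, 726 and 1445, 3704 and 4406, and 1389 and 1523. Without Dex, 383 genes were lower with at least 10 counts in every library. With WT libraries 3 and 4 alone 147 were higher and 1183 lower, and with libraries 1 and 2 alone 256 were higher, an alternative chosen after seeing the data. After 7 days, DESeq2 gave 522 lower and all 24 libraries in 1 fit 599. The replicate block gave 937 higher and 999 lower after 3 h, 30 and 423 without Dex, 1468 and 1060 for the difference, and 580 and 568 after 7 days. Leaving out 1 library gave 831 to 1013 higher and 983 to 1095 lower after 3 h, 19 to 53 and 335 to 682 without Dex, 1365 to 1626 and 904 to 1091 for the difference, and 372 to 471 and 195 to 338 after 7 days. The low counts without Dex came without EXPA1 OE replicates 2, 3 or 4 or WT replicate 4, and those after 7 days without EXPA1 OE replicate 2 or WT replicates 3 or 4. The causes were not tested. Of the values for named genes, 998 held their call and 34 lost it on leaving out a library. Under the other alternatives 1470 held and 60 lost it. Among these losses were GAI, CYP90D1 and PRR9 near the fold threshold and APR3, PS2 and bHLH39 with all 24 libraries in 1 fit. ANT, SWEET12, ERL1, GRF5, WRKY33, GH3.3 and SULTR1;2 were among those that lost it in the test against a log2 fold change of 1. Counts per list moved by over 1.5 times in 59 of 688 cases on leaving out a library and in 137 of 1032 under the others.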

Other observations

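Families were read from the annotated gene products and chosen after seeing the data, and most had calls in both directions. Of 55 AP2/ERF-type genes (annotated as Integrase-type DNA-binding) 16 rose and 7 fell in EXPA1 OE after 3 h, of 72 cysteine- and histidine-rich C1 domain genes 13 rose and 2 fell, of 49 peroxidases 10 rose and 4 fell, and of 52 protein phosphatase 2C genes 6 rose and none fell. Of 48 GDSL-type lipases 13 fell and none rose, of 51 lipid transfer and 2S albumin genes 16 fell and 6 rose, of 101 major facilitator transporters 16 fell and 5 rose, and of 43 thioredoxin superfamily genes 8 fell and 1 rose. Over all genes 4.51% were higher and 4.89% lower. Of 184 pentatricopeptide repeat genes 1 rose and 1 fell.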
